A study of Homo sapiens with 5 samples.

Results

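The genes described here are 9 genes of prostaglandin synthesis and response, PTGS1, PTGS2, PTGES, PTGES2, PTGES3, PTGIS, PTGER2, PTGER4 and PTGFR, together with the oxytocin receptor gene OXTR. They are 10 of the 30631 genes listed in every library, matched to Ensembl identifiers through GENCODE 29. The set was chosen by name with the gene levels of cells given 3-nitropropanoic acid (3-NP) and of control cells already in view, since OXTR and PTGIS had shown some of the largest falls. The values of these 10 genes in that comparison are therefore given as a description. RNA was sequenced from COV434, an established human line labelled as an ovarian granulosa tumour cell, in 2 control libraries and 3 libraries of cells given 3-NP, an irreversible inhibitor of succinate dehydrogenase in the mitochondrial respiratory chain. No other agent, allele or genotype is named for either group, and no dose or exposure time is given. The labels do not say that libraries came from separate cultures, so the spread between them may be technical. All 5 libraries come from 1 line, so they carry no spread between donors.

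Prostaglandins are lipid signals made from arachidonic acid, which phospholipases free from membranes. The cyclooxygenases PTGS1 and PTGS2 turn it into prostaglandin H2, and terminal synthases turn that into prostaglandin E2, prostacyclin and other products, each read by its own G protein-coupled receptors. In the ovary the luteinizing hormone surge induces PTGS2 in granulosa cells, and in mice prostaglandin E2 acting through PTGER2 is needed for expansion of the cumulus around the oocyte. Oxytocin, acting through OXTR, raises calcium and prostaglandin output in the uterus.

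Levels are in FPKM, fragments scaled to gene length and library depth, a scale on which genes can be set side by side. Depth worked out from the FPKM steps was 17838000 to 18883000 reads per library. Correlation across genes was 0.9854 between the controls, 0.9678 to 0.9821 between 3-NP libraries and 0.8907 to 0.91 between the groups. Changes are differences in log2(FPKM + 1), 3-NP minus control, from a limma fit over the 11858 genes with at least 1 FPKM in at least 2 libraries, and a gene is called at a Benjamini-Hochberg adjusted p under 0.05. A fold on that scale understates the change of genes near or below 1 FPKM. The median change over all tested genes was -0.11 (log2), and -0.01 after median-of-ratios scaling. Markers of the labelled cell type were mixed: FOXL2 was at 5.50 and 6.90 FPKM and NR5A1 at 21.9 and 24.9 FPKM in the controls, while FSHR, CYP19A1 and WT1 were at 0 in both. The level of a gene in bulk RNA cannot tell apart fewer cells of a type and less RNA per cell.

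On the log2(FPKM + 1) scale, the largest differences among the 9 tested genes lay in OXTR (-3.28), PTGIS (-2.93) and the prostaglandin E2 receptor gene PTGER2 (1.93). By the ratio of mean FPKM, PTGIS and OXTR fell 8.34-fold and 10.6-fold in cells given 3-NP from high levels in control cells. PTGER2 rose 9.77-fold by that ratio, from a low level. PTGER4, the other prostaglandin E2 receptor gene of the set, rose 2.55-fold. The level of the inducible synthase gene PTGES did not move one way: a 3-NP library was far below both controls and the other two were above both. The constitutive synthase genes PTGES2 and PTGES3 and the receptor gene PTGFR were not called.

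Of the 9 tested genes, 2 were called higher and 2 lower; 1 was called higher with either control left out, and 3 with 3-NP replicate 1 or 3 left out. Over all tested genes 40.8% were called, 15.5% higher and 25.2% lower (61.9% of calls were lower, and 51.2% after median-of-ratios scaling), and the members' counts are not read against these shares because the comparison was known when the set was drawn up. PTGS2, PTGER2 and PTGER4 passed the 1 FPKM minimum through 3-NP libraries alone, and PTGS1 did not pass it and was not tested. The groups did not overlap for 7 of the 10 genes, 5 higher (PTGS1, not tested, among them) and 2 lower in 3-NP, and for 6 of the 9 tested. Over all tested genes the groups did not overlap for 64.2%, with 25.8% higher and 38.4% lower.

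**Figure D1:**
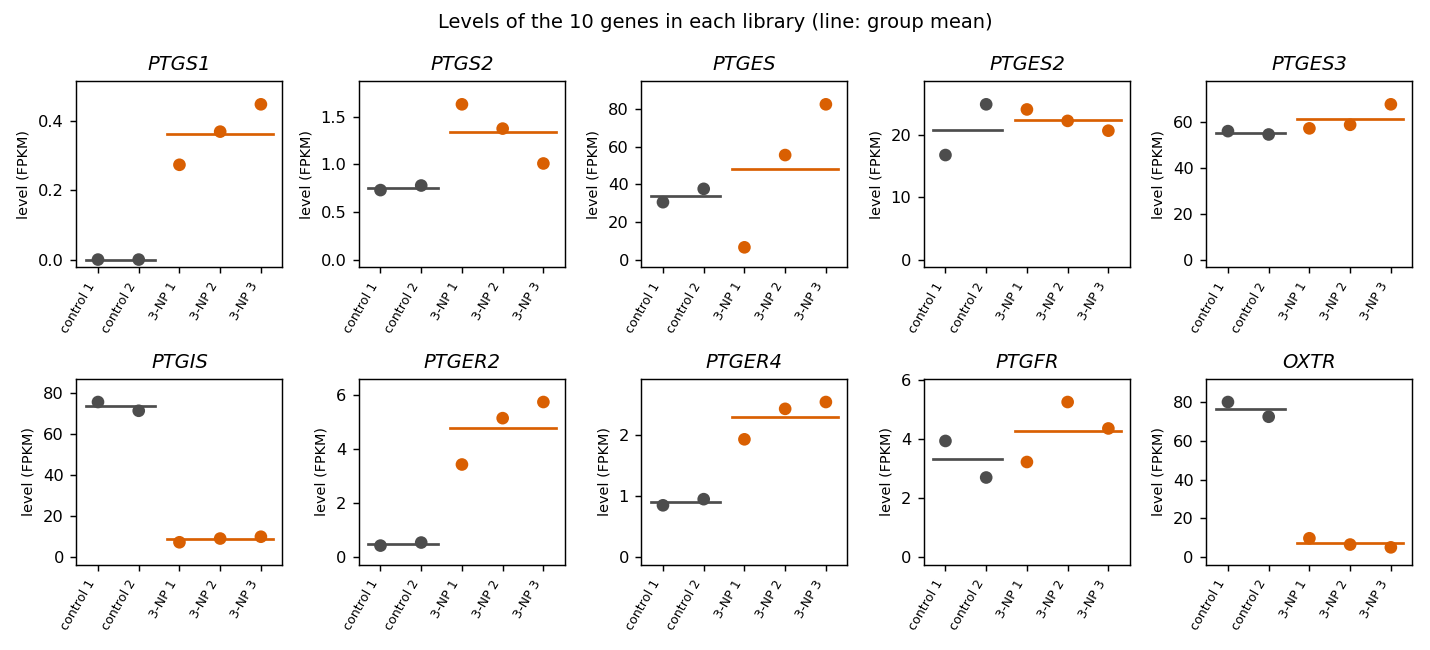
Level in FPKM (vertical axes, each on its own scale from 0) of each of the 10 genes in the 2 control and 3 3-NP libraries, with a point per library and a line at the group mean. PTGIS and OXTR lie above 70 FPKM in both controls and at or below 10.01 FPKM in 3-NP libraries, and PTGES is the gene whose 3-NP libraries spread most, from 6.51 to 82.5 FPKM.

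The upstream windows of 3 genes are shown because these genes differ in level and direction: OXTR fell from a high level, PTGER2 rose from a low one, and PTGS2, the inducible cyclooxygenase gene, had its highest value in a 3-NP library but was not called. The sequences are those that RefSeq (GRCh38.p14) gives for the 250 bases before each gene's start, read 5′ to 3′ on the gene's own strand, less the 15, 7 and 4 bases that GENCODE 29 already counts as transcribed. They lie at chr3:8769629-8769863 (minus strand) for OXTR, chr14:52314062-52314304 (plus strand) for PTGER2 and chr1:186680428-186680673 (minus strand) for PTGS2. Capitals mark matches on either strand to 4 motifs. They are the TATA box, TATAAA, the core of the cAMP response element, CGTCA, which is contained in the full element searched separately, then the GC box, GGGCGG, and the CCAAT box, read as its name is written.
OXTR: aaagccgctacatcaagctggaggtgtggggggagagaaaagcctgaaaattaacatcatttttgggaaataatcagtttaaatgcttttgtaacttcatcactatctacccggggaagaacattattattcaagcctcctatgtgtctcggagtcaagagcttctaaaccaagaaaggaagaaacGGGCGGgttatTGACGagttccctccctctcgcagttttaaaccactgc
PTGER2: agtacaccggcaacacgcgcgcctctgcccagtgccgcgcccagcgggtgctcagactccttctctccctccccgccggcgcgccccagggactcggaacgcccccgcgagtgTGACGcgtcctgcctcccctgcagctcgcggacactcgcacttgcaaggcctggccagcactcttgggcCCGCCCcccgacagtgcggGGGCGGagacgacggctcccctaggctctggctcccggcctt
PTGS2: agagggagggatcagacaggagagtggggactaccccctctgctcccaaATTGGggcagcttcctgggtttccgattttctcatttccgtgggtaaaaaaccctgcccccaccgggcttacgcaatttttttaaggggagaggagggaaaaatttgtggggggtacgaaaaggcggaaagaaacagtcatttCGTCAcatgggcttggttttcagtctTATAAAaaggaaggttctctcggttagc

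The OXTR window has 42.0% G and C over the 250 bases, the PTGS2 window 50.4% and the PTGER2 window 74.0%, against a median of 58.0% over 35116 windows. TATAAA stands 32 to 27 bases before the start in PTGS2 and is also in the window of PTGS1, and 10.7% of all windows hold it. CGTCA stands in 4 of the 9 members' windows (PTGS2, PTGES3, PTGER2 and OXTR), against 21.2% of all windows, in genes that rose, fell and were not called. The longer TGACGTCA (1.65% of windows), TGANTCA (6.57%, the AP-1 site), CACGTG (6.34%, the E-box) and the serum response CArG box (1.16%) matched no member. GGGCGG was in the windows of 8 members, PTGS2 being the exception, and in 42.6% of all windows. CCAAT was in those of PTGS2 and PTGER4 (32.0% of all windows) and the NF-kB consensus in that of PTGER4 (5.21%). A match is a run of letters and not a measured binding site. By GENCODE 29 the windows of PTGER4 and PTGFR lie wholly inside the gene and 124 bases of that of PTGES3 do, since the RefSeq starts differ from the GENCODE ones. The table used has no entry for PTGIS.

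The cyclooxygenase genes, which come first in the pathway, were at low levels, and PTGS1 was near the lower limit of what these libraries measured. PTGS1 (ENSG00000095303, chr9:122370530-122395703, plus strand), the constitutive cyclooxygenase, was at 0 FPKM in both controls and at 0.274, 0.370 and 0.449 FPKM in 3-NP libraries 1, 2 and 3. These values correspond to 30, 40 and 49 reads, while a count of 0 allows up to 0.0276 and 0.0290 FPKM in control libraries 1 and 2 (3 reads per library). PTGS1 was thus detected in the 3-NP libraries and not in the controls, and the 3-NP mean of 0.365 ± 0.0876 FPKM (SD, n = 3) was at least 12.6-fold higher than the floor. These floors cover counting error alone.

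PTGS2 (ENSG00000073756, chr1:186671791-186680427, minus strand), the inducible cyclooxygenase, was at 0.729 and 0.777 FPKM in control cells and at 1.63, 1.37 and 1.01 FPKM in 3-NP libraries 1, 2 and 3. Every 3-NP library was above both controls, with 100 to 162 reads against 72 and 73. The difference was 0.41 ± 0.16 (log2, SE; 95% confidence interval 0.02 to 0.79), a ratio of means of 1.78, and it was not called. It was called with 3-NP replicate 3 left out, at 0.51. The summed level of both cyclooxygenase genes was 0.729 and 0.777 FPKM in control cells and 1.90, 1.74 and 1.46 FPKM in the 3-NP libraries, of which PTGS1 gave 14.4%, 21.2% and 30.8%.

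The terminal synthase genes were expressed far more strongly than the cyclooxygenase genes. PTGIS (ENSG00000124212, chr20:49503874-49568146, minus strand), the prostacyclin synthase, was at 75.6 and 71.4 FPKM in control cells and at 7.31, 9.13 and 10.01 FPKM in the 3-NP libraries. All 3 3-NP values lay close together and far under both controls, and the rank of the gene by mean level moved from 526 to 4075 of 30631. The mean fell from 73.5 ± 3.01 FPKM (SD, n = 2) to 8.82 ± 1.38 FPKM (SD, n = 3), a change of -2.93 ± 0.16 (log2, SE; 95% interval -3.31 to -2.55). It rested on 7913 and 7103 reads in the controls, against 770 to 1052 in 3-NP libraries, and 5 of the 11858 tested genes had a lower change. Every alternative kept the call, with changes from -2.79 to -3.07.

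PTGES (ENSG00000148344, chr9:129738331-129753047, minus strand), the inducible microsomal prostaglandin E synthase, was at 30.5 and 37.6 FPKM in control cells and at 6.51, 55.5 and 82.5 FPKM in 3-NP libraries 1, 2 and 3. Library 1 was below both controls and libraries 2 and 3 were above both, so the groups overlap. The reads behind these values were 1084 and 1271 in the controls, against 233, 1964 and 2945 in the 3-NP libraries. The fitted difference was -0.09 ± 0.90 (log2, SE), with a 95% interval from -2.20 to 2.03, and it was not called. Without 3-NP replicate 1 it was 0.98 and was called. The range of PTGES among the 3-NP libraries was 3.48 (log2), wider than that of all but 5 tested genes, whose median range was 0.34.

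PTGES2 (ENSG00000148334, chr9:128120693-128128462, minus strand), a membrane-associated prostaglandin E synthase, was at 16.8 and 24.9 FPKM in control cells and at 24.1, 22.3 and 20.7 FPKM in the 3-NP libraries. All 3-NP values lay between the controls. The difference was 0.12 ± 0.19 (log2, SE; 95% interval -0.32 to 0.56), not called, and it turned to -0.15 with control replicate 1 left out. PTGES3 (ENSG00000110958, chr12:56663341-56688408, minus strand), the cytosolic prostaglandin E synthase also known as the HSP90 co-chaperone p23, was at 55.9 and 54.4 FPKM in control cells and at 57.1, 58.6 and 67.5 FPKM in the 3-NP libraries. The 3-NP values of PTGES3 were slightly above both controls, by 0.14 ± 0.14 (log2, SE; 95% interval -0.19 to 0.48), and the difference was not called. Processed pseudogenes of PTGES3 carried reads too, PTGES3P1 at 3.62 to 5.83 FPKM, and how reads shared between such copies were counted is not given in the sources used here.

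The make-up of the terminal synthases differed between the groups and also among the 3-NP libraries. PTGIS made up 42.3% and 37.9% of the summed FPKM of the 4 synthases in the controls and 7.69%, 6.27% and 5.54% in 3-NP libraries 1, 2 and 3. PTGES made up 17.1% and 19.96% in control cells and 6.85%, 38.2% and 45.6% in the 3-NP libraries. The PTGIS share was thus low in every 3-NP library, whereas the PTGES share was below the controls in library 1 and above them in libraries 2 and 3. The ratio of PTGIS to PTGES was 2.48 and 1.90 in the controls, against 1.12, 0.164 and 0.121 in the 3-NP libraries, lower in each of the 3. The summed FPKM of the 4 synthases was 178.8 and 188.3 in the controls, against 94.99, 145.6 and 180.7 in the 3-NP libraries.

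**Figure D2:**
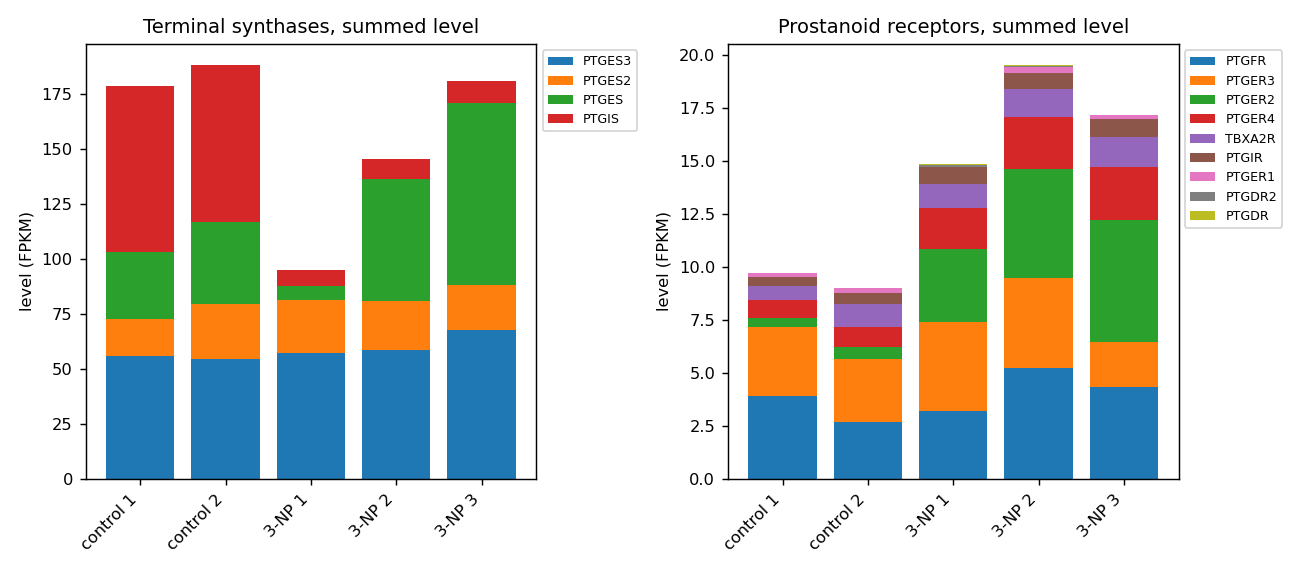
Stacked bars of the level in FPKM of the 4 terminal synthase genes (left) and the 9 prostanoid receptor genes (right) in each library. PTGIS is a thin band in every 3-NP library, PTGES is thin in 3-NP library 1 alone, and PTGER2 takes 23.1% to 33.4% of the receptor total in 3-NP libraries against 4.44% and 6.03% in the controls.

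Among the receptors, the genes for both Gs-coupled prostaglandin E2 receptors rose. PTGER2 (ENSG00000125384, chr14:52314305-52328606, plus strand), encoding EP2, was at 0.431 and 0.544 FPKM in control cells and at 3.43, 5.14 and 5.73 FPKM in the 3-NP libraries. The groups were far apart, with 20 and 24 reads in the controls, against 160, 237 and 267 in the 3-NP libraries. The mean rose from 0.488 ± 0.0798 FPKM (SD, n = 2) to 4.77 ± 1.20 FPKM (SD, n = 3), a change of 1.93 ± 0.20 (log2, SE; 95% interval 1.46 to 2.41), and 88 tested genes had a higher one. With a pseudocount of 0.1 in place of 1 the change was 3.02. PTGER2 reached the 1 FPKM minimum only through 3-NP libraries, so its call, kept under every alternative, is given as a description.

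PTGER4 (ENSG00000171522, chr5:40679498-40693735, plus strand), encoding EP4, was at 0.848 and 0.948 FPKM in control cells and at 1.93, 2.42 and 2.53 FPKM in the 3-NP libraries. Each 3-NP value was more than the control values, and the groups did not overlap. The mean went from 0.898 ± 0.0708 FPKM (SD, n = 2) to 2.29 ± 0.324 FPKM (SD, n = 3), a change of 0.79 ± 0.15 (log2, SE; 95% interval 0.44 to 1.14). The call was lost with either control left out (0.75 without control replicate 1 and 0.83 without control replicate 2), and the change was 1.25 with a pseudocount of 0.1. PTGER4 overlaps TTC33 on the opposite strand without shared exon bases, and TTC33 was at 1.11 to 2.27 FPKM.

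PTGFR (ENSG00000122420, chr1:78303884-78539749, plus strand), encoding the Gq-coupled receptor for prostaglandin F2 alpha, was at 3.94 and 2.70 FPKM in control cells and at 3.22, 5.25 and 4.36 FPKM in the 3-NP libraries. One 3-NP library lay between the controls and the others lay above them. The difference of 0.29 ± 0.21 (log2, SE; 95% interval -0.21 to 0.78) was not called. Summed over all 9 prostanoid receptor genes the level was 9.72 and 9.02 FPKM in control cells and 14.8, 19.5 and 17.2 FPKM in the 3-NP libraries. PTGER2 held 4.44% and 6.03% of that sum in the controls and 23.1%, 26.3% and 33.4% in 3-NP libraries 1, 2 and 3. The largest share was held by PTGFR in control library 1 (40.5%) and 3-NP library 2 (26.9%), by PTGER3 in control library 2 (33.0%) and 3-NP library 1 (28.2%), and by PTGER2 in 3-NP library 3.

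OXTR (ENSG00000180914, chr3:8750408-8769628, minus strand), encoding the Gq-coupled receptor for oxytocin, was at 79.9 and 72.3 FPKM in control cells and at 9.78, 6.56 and 5.11 FPKM in 3-NP libraries 1, 2 and 3. The highest 3-NP value was far under the lowest control value, and the rank by mean level moved from 504 to 4725 of 30631. The mean fell from 76.1 ± 5.36 FPKM (SD, n = 2) to 7.15 ± 2.39 FPKM (SD, n = 3), a change of -3.28 ± 0.24 (log2, SE; 95% interval -3.84 to -2.73), and 1 tested gene had a lower change. It rested on 6763 and 5823 reads in the controls, against 434 to 834 in the 3-NP libraries. Every alternative kept the call, with changes from -3.09 to -3.50. The opposite-strand neighbour CAV3, which shares no exon bases with OXTR, was at 0.110 FPKM or less. Among the oxytocin and vasopressin genes, the ligand gene OXT was at 0 in both controls and in 3-NP library 1 and had 1 and 2 reads in 3-NP libraries 2 and 3. LNPEP, whose product cleaves oxytocin, was the single tested gene of that list, with a difference of -0.32 (log2) that was not called (adjusted p = 0.429, limma).

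OXTR and PTGIS are also expressed by smooth muscle and stromal cells, and PTGIS by endothelial cells, and the summed markers of each of these cell types were lower in every 3-NP library than in either control, but not every marker was. The 6 fibroblast markers summed to 926 and 925 FPKM in control cells and 166, 285 and 350 FPKM in the 3-NP libraries, with 2 of the 4 tested called lower, COL1A1 at 606 and 619 FPKM against 91.6, 137 and 173 FPKM being the most abundant. The 6 smooth muscle markers summed to 464 and 531 FPKM against 289, 254 and 244 FPKM, with 3 of 4 tested called lower. The collagens carried the fibroblast sum, while DCN was at 0.868 and 0.711 FPKM in the controls and 1.21, 1.25 and 1.26 FPKM in the 3-NP libraries, higher without overlap though not called, and LUM was at 0.477 FPKM or less. PDGFRA, under the filter, was at 1.20 and 0.795 FPKM in the controls and 0.267, 0.408 and 0.284 FPKM in the 3-NP libraries. ACTA2 and TAGLN carried the smooth muscle sum. CNN1, called lower, was at 1.63 and 1.79 FPKM against 0.697, 1.04 and 1.12 FPKM. SMTN was at 2.25 and 2.27 FPKM against 1.72, 1.62 and 1.996 FPKM, lower without overlap though not called. MYH11 (0.119 FPKM or less) and DES (0.453 FPKM or less), defining markers of differentiated smooth muscle, were near 0 and were each higher in every 3-NP library than in either control. The 16 granulosa markers summed to 59.1 and 61.0 FPKM against 41.0, 43.0 and 36.1 FPKM, with 4 of 8 tested called lower. The 6 endothelial markers summed to 7.29 and 5.51 FPKM against 4.44, 3.93 and 2.64 FPKM. TEK, called lower, was at 6.89 and 5.19 FPKM against 1.84, 1.997 and 1.11 FPKM. It made up nearly all of the sum in the controls but not in the 3-NP libraries. The other 5 endothelial markers summed to 0.394 and 0.322 FPKM against 2.6, 1.94 and 1.53 FPKM, with KDR at 0.230 and 0.197 FPKM against 2.12, 1.64 and 1.26 FPKM. Theca markers summed to 0.0782 FPKM or less and immune markers to 0.765 FPKM or less in every library. By title all 5 libraries are of the 1 line COV434, and no other cell type is named for them. The part of these markers in the falls of OXTR and PTGIS was not tested.

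**Figure D3:**
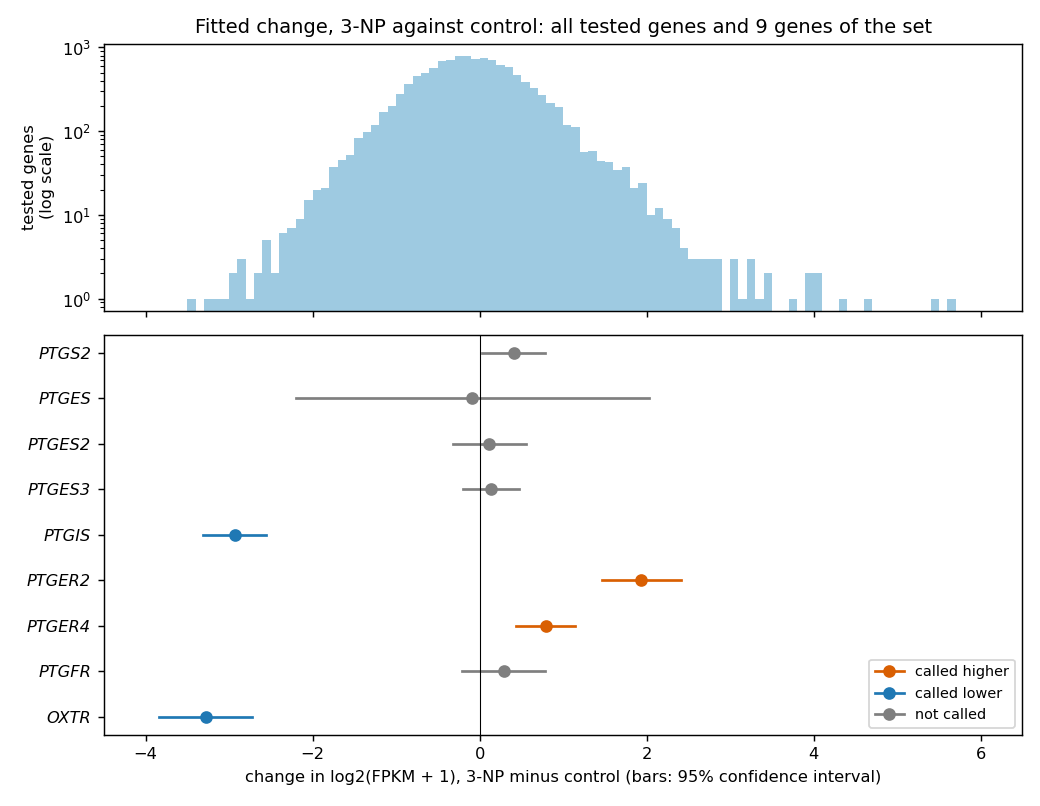
Top, number of tested genes (log scale) by fitted change in log2(FPKM + 1), 3-NP minus control; bottom, the change of the 9 tested genes of the set on the same axis with 95% confidence intervals. PTGIS and OXTR lie in the far left tail at -2.93 and -3.28, PTGER2 lies to the right at 1.93, and the interval of PTGES runs from -2.20 to 2.03.

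In order of level, the controls had OXTR and PTGIS at the top, whose libraries overlap, followed by PTGES3, PTGES, PTGES2, PTGFR, PTGER4, PTGS2, PTGER2 and PTGS1 with no overlap between neighbours. In the 3-NP libraries PTGES3 came first with a mean of 61.1 FPKM, followed by PTGES (48.2 FPKM, overlapping PTGES3, PTGES2, PTGIS and OXTR), PTGES2 (22.4 FPKM), PTGIS, OXTR, PTGER2, PTGFR, PTGER4, PTGS2 and PTGS1. There PTGIS overlapped OXTR, OXTR overlapped both PTGER2 and PTGFR, and PTGER2 overlapped PTGFR. By contrast, PTGFR, PTGER4, PTGS2 and PTGS1 were apart from each other. OXTR went from above PTGES3 in both controls to within the range of PTGIS and PTGER2.

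The genes most like a member were sought among 10602 tested protein-coding genes, by the root mean square distance over the 5 libraries of log2(FPKM + 1) less its control mean. For OXTR they were NEXN at a distance of 0.223, AMIGO2 at 0.261 and TNFRSF11B at 0.331. NEXN was at 30.7 and 27.8 FPKM in control cells and 1.99, 1.95 and 1.35 FPKM in the 3-NP libraries. For PTGIS they were IFIT3 at 0.0643, IFIT2 at 0.125 and again AMIGO2 at 0.230, and IFIT3 was at 20.7 and 20.2 FPKM against 1.30, 2.15 and 2.03 FPKM. AMIGO2 was at 73.9 and 69.2 FPKM in control cells and 8.09, 8.16 and 6.73 FPKM in the 3-NP libraries, close to OXTR and PTGIS in level as well as in pattern. For PTGS2 they were SPRY3 at 0.0436, DNASE1L1 at 0.0460 and DCUN1D3 at 0.0509, all with their highest value in 3-NP library 1, as PTGS2 had.

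Around the members, 64 further genes of arachidonic acid and prostanoid handling were listed, of which 61 were in the files and 35 were tested. In the limma fit 10 of the 35 rose and 7 fell, 48.6% in all beside 40.8% of all tested genes. With control replicate 1 or 2 left out 5 or 4 were called higher and 2 or 1 lower, and without 3-NP replicate 2 the higher calls were 6. Of 9 tested genes listed for putting arachidonic acid back into phospholipids, 6 were not called. Their changes (log2) were 0.38 for LPCAT1, 0.32 for LPCAT4, 0.31 for ACSL4, -0.16 for MBOAT7, -0.38 for LPCAT3 and -0.39 for ACSL5. None was called lower and 3 were called higher (33.3% called, beside 40.8% of all tested genes). They were ACSL3, which activates fatty acids, from 8.79 ± 0.682 to 29.1 ± 3.95 FPKM (1.61 on the log2 scale, adjusted p = 0.000636), LPCAT2, which acylates lysophospholipids, from 6.37 ± 0.616 to 15.6 ± 2.84 FPKM (1.16, adjusted p = 0.00289), and ACSL1 (0.79, adjusted p = 0.00500), which was not called without control replicate 2 (0.68).

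The list of genes that release arachidonic acid or regulate that release moved both ways, with 3 of 10 tested higher and 4 lower. PLA2G4A, the cytosolic phospholipase that supplies the cyclooxygenases, was at 2.32 and 2.01 FPKM in control cells and 6.21, 7.53 and 4.69 FPKM in the 3-NP libraries. It rose by 1.16 (log2; limma adjusted p = 0.00383), and every 3-NP library was above both controls. MGLL, the lipase of 2-arachidonoylglycerol, fell by 0.76 (log2; limma adjusted p = 0.00430). PLA2G4C, a related phospholipase counted among the lower, was at 2.33 and 2.19 FPKM in control cells and 0.905, 0.746 and 1.004 FPKM in the 3-NP libraries, and it reached the 1 FPKM minimum only through the controls. The other called genes of that list, named after their values were seen, were PLA2G12A (0.79) and ANXA1 (0.61), known as an inhibitor of phospholipase A2, among the higher and DAGLA (-0.67) and PLAA (-0.51) among the lower. Calls were lost with either control left out for DAGLA (-0.64 and -0.70 without control replicates 1 and 2), ANXA1 (0.59 and 0.62) and PLAA (-0.38 and -0.64), and for PLA2G12A without control replicate 2 (0.71). ANXA1 and PLAA also lost theirs without 3-NP replicate 2 (0.52 and -0.54) or 3 (0.54 and -0.49), whereas PLA2G4A and MGLL kept theirs under every alternative.

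Of 5 tested genes for other prostanoid synthases 3 rose and 1 fell. AKR1B1, an aldo-keto reductase with prostaglandin F synthase activity, was at 149 and 182 FPKM in control cells and 267, 246 and 279 FPKM in the 3-NP libraries, the most abundant synthase gene listed, and rose by 0.68 (log2; limma adjusted p = 0.0141). AKR1C3, another prostaglandin F synthase, rose by 0.50 (adjusted p = 0.0232) and CBR1, a carbonyl reductase that converts prostaglandin E2 to F2 alpha and is named after its values were seen, by 0.43 (adjusted p = 0.0418). PRXL2B, also called prostamide/prostaglandin F synthase, fell by 0.82 (adjusted p = 0.00489), so genes with this activity were called in both directions. The call of AKR1B1 was lost without control replicate 1 (0.53) and that of PRXL2B without control replicate 2 (-0.67). Those of CBR1 and AKR1C3 were lost with either control or 3-NP replicate 2 or 3 left out, with changes of 0.36 to 0.50 and 0.41 to 0.59.

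Of the genes that break down or carry prostaglandins, 3 of 6 were tested and 2 fell: PTGR3, a prostaglandin reductase listed under the older symbol ZADH2, by 0.64 (log2; limma adjusted p = 0.0110) and the exporter ABCC4 by 0.61 (adjusted p = 0.0491), a call that 10 of 15 alternatives did not keep. Among them were those without control replicate 1 (-0.51) or 2 (-0.71) and without 3-NP replicate 1 (-0.65) or 3 (-0.44), and PTGR3 was not called with either control left out (-0.55 and -0.73). Genes of this list under the filter were looked at after their values were seen. HPGD, the main prostaglandin-inactivating dehydrogenase, had 3 and 2 reads in the controls, against 86, 53 and 44 in the 3-NP libraries, or 0.0289 and 0.0203 FPKM against 0.824, 0.514 and 0.423 FPKM. SLCO2A1, the prostaglandin importer, was at 0.807 and 0.764 FPKM in control cells and 0.020, 0.507 and 0.543 FPKM in the 3-NP libraries, and 3-NP library 1, the lowest for PTGES, was also the lowest for SLCO2A1. The list of other receptor genes held 6 prostanoid receptors and PTGFRN, whose product inhibits ligand binding to the receptor encoded by PTGFR. Of these 7, 3 were tested (PTGER3, TBXA2R and PTGFRN) and none was called by limma, with PTGFRN alone at an unadjusted p under 0.05 (0.0365; log2 difference -0.37). PTGER3, the Gi-coupled EP3 receptor, was at 3.24 and 2.98 FPKM in control cells and 4.19, 4.24 and 2.11 FPKM in the 3-NP libraries. PTGIR, the prostacyclin receptor, stayed under the filter at 0.406 and 0.506 FPKM against 0.836, 0.771 and 0.854 FPKM. In the lipoxygenase and leukotriene list 1 of 5 tested genes rose, LTA4H, the leukotriene A4 hydrolase, by 0.49 (adjusted p = 0.0203), a call lost with either control (0.48 and 0.49) or 3-NP replicate 2 (0.46) left out.

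**Figure D4:**
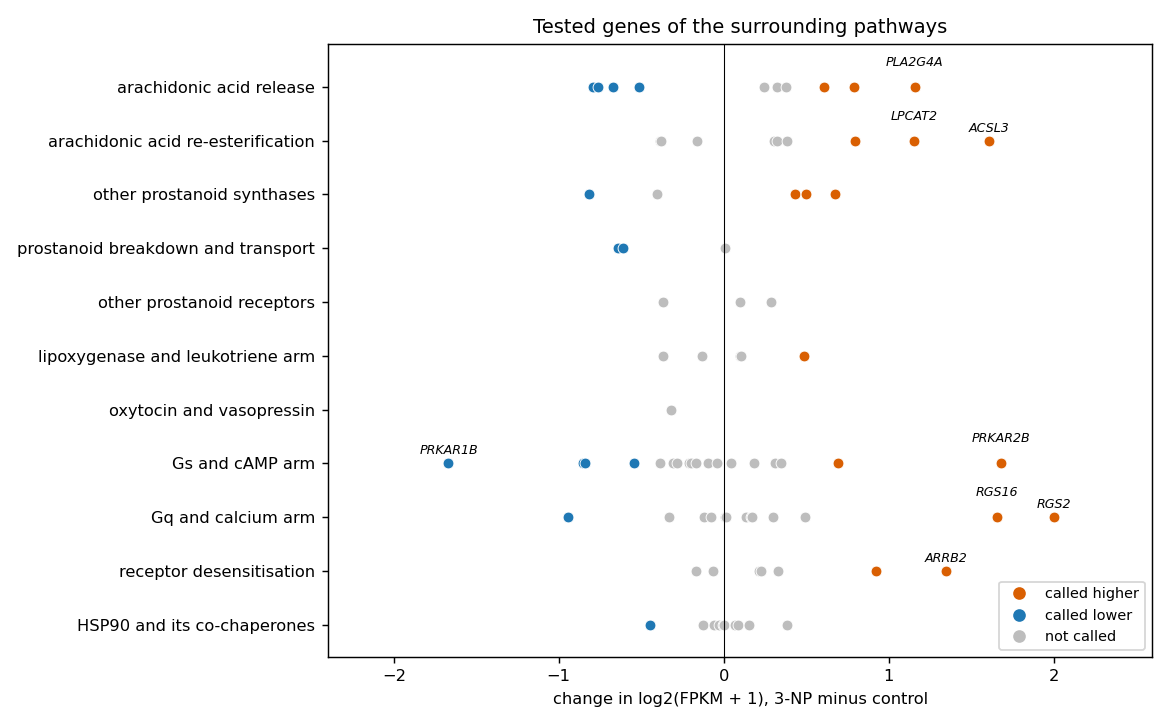
Change in log2(FPKM + 1), 3-NP minus control, of the tested genes of each surrounding list, with a point per gene coloured by its call in the all-gene fit and genes called with a change of at least 1 in size named. The points run from PRKAR1B at -1.67 to RGS2 at 2.0, and the genes for HSP90 and its co-chaperones lie close to 0.

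A further 76 genes were listed for the Gs and Gq arms and desensitisation of the receptors, for oxytocin and vasopressin and for HSP90 with its co-chaperones. Of these 73 were in the files and 49 were tested, and in the limma fit 6 rose and 6 fell (24.5%, beside 40.8% of all tested genes). In the receptor arms and desensitisation alone, 6 of 38 tested rose and 5 fell (28.9%). RGS16 and ADCY7 reached the 1 FPKM minimum only through the group where they were high, so for these 2 the levels and fitted changes are given as a description. The lower calls were 1 without control replicate 1 and 3 without control replicate 2, and the higher calls were 12 with a gene length trend removed. In the Gs and cAMP arm, read by PTGER2 and PTGER4, 2 of 18 tested rose and 4 fell. The regulatory subunits of protein kinase A moved apart: PRKAR2B was at 1.44 and 1.05 FPKM in control cells and 7.63, 6.38 and 4.83 FPKM in the 3-NP libraries (1.68 on the log2 scale, adjusted p = 0.00111), and PRKAR1B was at 12.8 and 15.5 FPKM against 3.29, 3.72 and 4.29 FPKM (-1.67, adjusted p = 0.000567). The catalytic subunit gene PRKACA rose by 0.69 (adjusted p = 0.0103). PDE8A, a cAMP phosphodiesterase, fell by 0.84 and PRKAR1A by 0.54 on the log2 scale, and these 2 and PRKACA were named after their values were seen. Adenylyl cyclase genes went both ways. ADCY7 was at 2.87 and 2.29 FPKM in control cells and 0.988, 1.09 and 0.849 FPKM in the 3-NP libraries. Under the filter and looked at after their values were seen, ADCY8 had 2 and 4 reads in the controls, against 58, 74 and 86, ADCY1 had 9 and 12 against 154, 61 and 63, and ADCY5 had 20 and 21 against 130, 52 and 52. PRKAR2B and PRKAR1B kept their calls under every alternative. PRKACA (0.62 and 0.76), PDE8A (-0.80 and -0.87) and PRKAR1A (-0.49 and -0.60) lost theirs without control replicate 1 or 2 (changes in that order).

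In the Gq and calcium arm, read by OXTR and PTGFR, 2 of 13 tested genes rose and 1 fell. RGS2, which limits Gq signalling, was at 1.27 and 1.31 FPKM in control cells and 8.87, 7.78 and 7.93 FPKM in the 3-NP libraries, a change of 2.0 ± 0.14 (log2, SE; limma adjusted p = 0.000243). RGS16, a related regulator, went from 0.483 and 0.277 FPKM to 3.71, 3.18 and 3.15 FPKM (1.66 on the log2 scale, and 2.87 with a pseudocount of 0.1). Both regulators were far higher in every 3-NP library than in either control. PLCB4, a phospholipase C that Gq activates, fell by 0.94 (adjusted p = 0.0221), a call lost without control replicate 1 (-0.69). All 7 genes of receptor desensitisation were tested, and 2 rose: ARRB2, which encodes the adaptor beta-arrestin 2, from 1.95 to 6.54 FPKM (1.35, adjusted p = 0.000880) and GRK5, a receptor kinase, from 3.09 to 6.77 FPKM (0.92, adjusted p = 0.00232). Of the 10 genes for HSP90 and its co-chaperones, partners of PTGES3, 1 was called, FKBP4, lower by 0.45 (log2; adjusted p = 0.0429), and 9 alternatives did not keep that call, among them those without control replicate 1 (-0.51) or 2 (-0.38) and without 3-NP replicate 1 (-0.44) or 2 (-0.38).

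**Figure D5:**
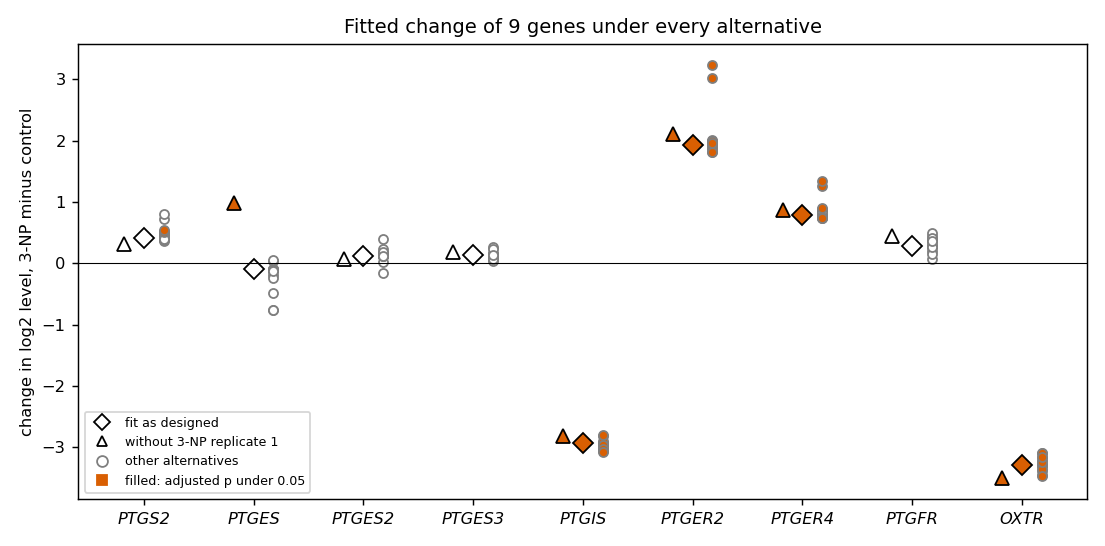
Change in log2 level (vertical axis), 3-NP minus control, of the 9 tested genes in the fit as designed (diamond), without 3-NP replicate 1 (triangle) and under the other alternatives (circles), filled where the adjusted p is under 0.05. PTGIS, PTGER2 and OXTR are filled throughout, and PTGES is filled only without 3-NP replicate 1, at 0.98.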

How the data were processed

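RNA-seq of COV434 cells gave 2 control and 3 3-NP libraries, grouped by sample title; the cell line field names COV434 to COV438 in turn, and every library was treated as COV434. Per the labels' protocols, RNA was extracted with TRIzol for a stranded mRNA kit. Tools named, per the submitters' processing notes, are bcl2fastq 2.17, Trimmomatic 0.39 and HISAT2 2.1, with GRCh38 (hg38) as the build. For the counter, annotation and strand setting nothing is given in the sources used here. The files deposited by the authors hold 1 value per Ensembl gene, read as FPKM because value times GENCODE 29 exon length gave whole reads within 0.05 for 91.41% to 93.13% of values; the unit itself is not written in them. Depth was worked out from those steps.

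Symbols, positions and overlaps came from GENCODE 29, which held 30390 of the 30631 identifiers. Genes with at least 1 FPKM in 2 libraries were fitted on log2(FPKM + 1) in limma 3.58.1 under R 4.3.3, using eBayes and its mean-variance trend, group as the only term and 3 residual degrees of freedom; p-values are two-sided and adjusted over all tested genes at 0.05. The fit was tested on simulated data. Named genes were all 10 members, the called genes of each list with a change of at least 1 in size or among its 3 smallest p, and the 3 genes most like OXTR, PTGS2 and PTGIS; others are marked as named after their values were seen. The members and lists were chosen with earlier results of these data known.

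Alternatives covered the low-value filter, pseudocount, scaling, variance trend, replicate block and each library left out. Removal of a length trend and voom on reads worked out from FPKM were added after seeing the data.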

Additional observations from a re-analysis of the deposited data

How the results depend on the processing

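Of 569 values of 39 named genes under 15 alternatives, 492 kept direction and side of the threshold, 71 lost the call, 2 gained it and 4 reversed. The 492 include PTGS1, which was not tested in the fit as designed and so had no call to keep. Without the low-value filter PTGS1 was called higher (0.45 on the log2 scale, limma adjusted p = 0.0234), and members called higher then numbered 3. As PTGS1 was at 0 FPKM in both controls, that call is given as a description. The reversed value of PTGES without 3-NP replicate 1 was also called. Changing the filter or the variance trend leaves the fitted change as it was, so there only the call could move. The replicate block gave the same changes as leaving out 3-NP replicate 3. OXTR, PTGIS and PTGER2 kept their calls throughout, though PTGER2 reached the 1 FPKM minimum through 3-NP libraries alone. PTGES reversed to 0.033 under median-of-ratios scaling, 0.06 without control replicate 2 and 0.98 without 3-NP replicate 1 (range with a library left out -0.76 to 0.98), and PTGES2 to -0.15 without control replicate 1 (range -0.15 to 0.39; log2); the cause was not tested. PTGS2 was called at 0.51 without 3-NP replicate 3 and at 0.54 with the length trend removed. Members called higher numbered 1 under the stricter filter, which removed PTGER4, and 1 to 3 with a library left out. With a library left out, all genes called ranged from 752 to 2147 higher and 1062 to 3107 lower, pathway genes from 4 to 11 higher and 1 to 6 lower, and signalling genes from 1 to 6 lower, the fewest with a control left out, where the lone control is assumed to vary like the 3-NP group. With the length trend removed 12 signalling genes were higher. Lower calls were 61.9% of all calls, 51.9% after quantile normalization, 51.2% after median-of-ratios scaling and 50% with the length trend removed. Whether libraries that share a replicate number were paired is not given. The correlation of deviations was 0.157 for number 1 and -0.351 for number 2. It cannot show or exclude pairing, because the deviations of 2 controls mirror each other. With the replicate block, 1737 genes were higher and 2610 lower, with 2 and 2 members, 7 and 5 pathway genes, and 7 and 5 signalling genes. Depth limits PTGS1, PTGS2, PTGER2 and PTGER4, which had 0 to 73 reads in a control library.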

Other observations

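The split of PTGES among the 3-NP libraries was shared by other genes, a pattern sought after its values were seen. Of 11858 tested genes, 318 (2.68%) had 3-NP library 1 below both controls and libraries 2 and 3 above both, and 209 had the opposite split. In 36 genes of the first kind, PTGES not among them, both differences were at least 1.5-fold. KRT17, a keratin, was at 44.96 and 58.3 FPKM in the controls and 13.9, 369 and 597 FPKM in the 3-NP libraries. FOLR1, a folate receptor, was at 31.0 and 43.9 FPKM against 9.91, 126 and 166 FPKM, and the cytokine gene IL1A at 2.18 and 2.61 FPKM against 1.27, 8.23 and 10.5 FPKM. The genes most like PTGES over the 5 libraries were CDKN2A, WISP2 and TINAGL1 at distances of 0.272, 0.39 and 0.392, and CDKN2A was at 4.64 and 6.41 FPKM against 0.673, 13.7 and 17.4 FPKM.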
